A study of Bos taurus with 18 samples.

Results

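The miR-17 to miR-92a cluster and its copy on the X chromosome, the miR-106a-363 cluster, are represented in these data by 9 mature microRNAs. They were taken by their bovine names: bta-miR-17-5p, bta-miR-18a, bta-miR-19a, bta-miR-19b, bta-miR-20a, bta-miR-20b, bta-miR-92a, bta-miR-106a and bta-miR-363, written below without the species prefix. They are 9 of 824 miRNAs counted once names for the same miRNA had been merged, and all 9 were among the 468 that passed the filter on low counts.

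A microRNA is a short RNA that guides Argonaute proteins to messenger RNAs, which are then repressed, and the bases near its 5′ end, the seed, set most of its targets. The miR-17 to miR-92a cluster is made as a single primary transcript that is cut into several hairpins, and it is best known for promoting proliferation and survival in mammalian cells, with BIM and the inhibitor p21 among its described targets. In mouse and human work it is activated by MYC and E2F factors, and the rumen epithelium is a tissue that proliferates throughout life.

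Rumen papillae, the finger-like folds of the forestomach wall that absorb fermentation products, were biopsied from 9 cannulated Holstein cows that were not lactating, and their small RNA was sequenced. HG_PHY (4 libraries) and HG_CON (5 libraries) were taken on a high-grain diet with 65% concentrate, FD_PHY (4 libraries) and FD_CON (5 libraries) on forage alone. PHY cows received a supplement of unstated composition, and whether they already had it on forage is not stated either, while CON cows were the controls. Every cow ate forage first, so diet and time cannot be told apart, and in whole papillae fewer cells of a type and less RNA per cell cannot be told apart either.

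The libraries held 5739789 to 15204018 reads assigned to miRNAs, between 27.1% and 48.7% of all their reads. Levels below are raw counts scaled to the miRNA reads of each library with edgeR's TMM factors, as CPM (counts per 1000000 miRNA reads). A molecule gives a single read whatever its length, so members are compared without a length correction. Marker miRNAs of stratified epithelium, led by miR-205 at a mean of 28643 CPM, summed to 60067 ± 6705 CPM in HG libraries and 59080 ± 6512 CPM in FD libraries (SD, n = 9 each). The muscle list, which is nearly all miR-143, summed to 113170 ± 11405 CPM in HG libraries and 163300 ± 52014 CPM in FD libraries. In FD libraries its median was 143650 CPM and its highest value 297900 CPM, beside 107890 and 133030 CPM in HG libraries. Within the list, miR-1 averaged 577.68 CPM and miR-133a 24.977 CPM, while miR-133b averaged 0.277 CPM and the skeletal muscle miR-206 0.249 CPM.

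In the coordinates of the deposited files, which name no genome build, 5 members lie on the plus strand of chromosome 12 within 757 nt (66226567-66227323). Their order is miR-17-5p, miR-18a, miR-19a, miR-20a and miR-92a. The other 4 are listed on the minus strand of chromosome X within 809 nt (17917752-17918560), in the order miR-106a, miR-20b, miR-19b and miR-363 along the transcript. RefSeq's gene table places a further miR-19b gene between MIR20A and MIR92A-1, and a further miR-92a gene, MIR92A-2, between MIR363 and MIR19B-2. No host gene is annotated over either cluster in that table. The mature miR-19b and miR-92a therefore have a gene in both clusters and were not assigned to either here.

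The members fall into 4 seed groups. The miR-17 group holds miR-17-5p, miR-20a, miR-20b and miR-106a, the miR-19 group holds miR-19a and miR-19b, and the miR-92a group holds miR-92a and miR-363. miR-18a stands alone, with a seed that differs slightly from that of the miR-17 group. In mouse lymphoma the miR-19 members carry much of the cluster's oncogenic activity, and miR-92a is known from endothelial cells, where it restrains vessel growth.

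miR-92a was by far the most abundant member. It averaged 11591 CPM over the 18 libraries, ranked 15 among the 824 miRNAs and supplied 81.3% of all reads of the 9 members. miR-20a averaged 844 CPM and miR-17-5p 800 CPM, 6.06% and 5.74% of the members' reads. miR-19b followed at 630 CPM, and then came miR-19a at 155 CPM and miR-18a at 145 CPM. The members found only in the X cluster were scarce, with miR-106a at 26.6 CPM, miR-363 at 6.72 CPM and miR-20b at 1.97 CPM.

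The order was steep in some places and flat in others. miR-92a exceeded miR-20a 13.7-fold and did so in 18 of 18 libraries. miR-20a and miR-17-5p differed by 1.06-fold, with miR-20a higher in 12 of 18 libraries, which is within their spread. miR-17-5p exceeded miR-19b by 1.27-fold in 16 of 18 libraries, and miR-19a exceeded miR-18a by 1.07-fold in 14 of 18. The steps from miR-19b down to miR-19a (4.07-fold) and from miR-18a down to miR-106a (5.44-fold) held in 18 of 18 libraries, as did the steps from miR-106a to miR-363 (3.96-fold) and from miR-363 to miR-20b (3.40-fold). In adjusted counts, which divide a read over the names and loci it fits, the order of miR-106a and miR-363 turned: miR-363 averaged 10.6 and miR-106a 8.75 adjusted CPM, with miR-363 higher in 10 of 18 libraries. The step from miR-92a to miR-20a was then 7.19-fold, still in 18 of 18 libraries. These adjusted counts are those of the bovine name alone. They leave out the share of miR-106a reads given to its human name, and miR-363 is listed under no human name. Whether the order turns with that share added was not tested.

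**Figure D1:**
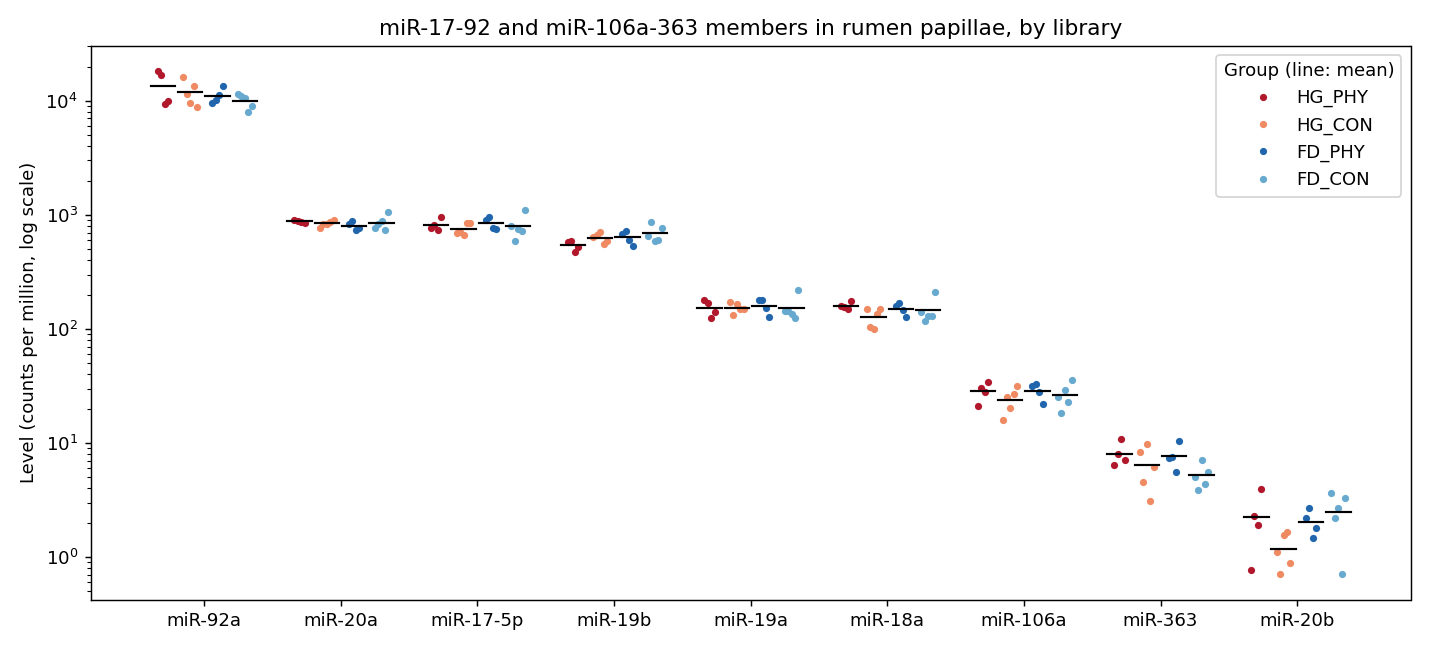
Level of each member in each library, in CPM on a log axis, for HG_PHY, HG_CON, FD_PHY and FD_CON (points are libraries, lines are group means). miR-92a lies above every other member in all 18 libraries, and HG and FD libraries overlap for each of the 9 members. For miR-19b the HG_PHY libraries, at most 588 CPM, lie below the FD_CON libraries, at least 596 CPM. These groups differ in both diet and arm, and the gap was noticed among the values and got no test. How many other miRNAs part in this way was not counted.

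Many reads fit several names or loci, through paired bovine and human names at a position, near-identical genes, or both. Of the members, 6 are listed under such a pair of names (miR-18a, miR-19a, miR-19b, miR-20a, miR-92a and miR-106a). The adjusted count shows how far reads were divided. A miR-92a read counted for 3.82 names or loci on average, a miR-19b read for 3.93 and a miR-106a read for 4.81, whereas the reads of miR-363 fitted a single place. The figure was 2.04 for miR-17-5p, 2 for miR-20a and miR-19a, 2.01 for miR-18a and 1.24 for miR-20b. The ratio of adjusted to raw count hardly varied between libraries (0.260 to 0.264 for miR-92a and 0.203 to 0.218 for miR-106a) except for miR-20b, where it ran from 0.5 to 1. Sharing therefore bears on levels and on the order of members more than on differences between groups, and the level of miR-106a in particular is uncertain, since most of its reads also fitted other names or loci.

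Reads of the X copies were a small fraction of those of their chromosome 12 relatives. miR-106a had 3.34% of the reads of miR-17-5p, and 1.42% in adjusted counts. miR-18b, the X relative of miR-18a that is outside the 9, had 1.36% of its reads, and 0.721% in adjusted counts. miR-20b had 0.246% of the reads of miR-20a, and 0.397% in adjusted counts. miR-363 had 0.0584% of the reads of miR-92a, and 0.223% in adjusted counts. In all 4 pairs the X relative was the scarcer one by either count. The adjusted counts leave out shares given to human names. miR-106a, miR-20a and miR-92a are listed with such a name and their partners are not. Leaving it out raises the adjusted percentages of miR-20b and miR-363. For miR-106a the direction is not known, since a read of miR-17-5p also counted for 2.04 names or loci. miR-92a also has a gene on X, so the last percentage sets miR-363 against both clusters.

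Each hairpin gives rise to a strand that is usually loaded and one that is usually discarded. The strand counted as a member was the prevailing one wherever an opposite strand was also counted. Pooled over libraries, miR-17-5p had 38.7 reads for each read of miR-17-3p, miR-20a had 54.7 for each of miR-20a-3p, and miR-18a had 10.3 for each of miR-18a-3p. miR-18a was thus the least one-sided of the 3. All opposite strands except miR-17-3p were counted under human names, and whether that affects their counts was not tested. The opposite strands of the rest were almost unseen, with 9 reads of miR-19a-5p against 26114 of miR-19a, 79 of miR-92a-1-5p against 1934330 of miR-92a, and 112 of miR-19b-1-5p against 107949 of miR-19b. miR-92a and miR-19b also have a gene on X, and the opposite strands counted for them belong to the chromosome 12 hairpins. Their counts therefore set both clusters against the chromosome 12 hairpin alone.

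The strand ratios overlapped between diets. miR-17-5p over miR-17-3p averaged 36.8 ± 6.15 in HG libraries and 40.8 ± 7.25 in FD libraries (SD, n = 9 each). miR-20a over miR-20a-3p averaged 62.8 ± 16.6 in HG libraries and 52.8 ± 13.7 in FD libraries. miR-18a over miR-18a-3p averaged 10.8 ± 2.75 in HG libraries and 10.4 ± 1.995 in FD libraries. Within grain feeding, this last ratio ran from 11.2 to 14.96 in the 4 HG_PHY libraries and from 6.78 to 10.6 in the 5 HG_CON libraries, which do not overlap, while FD_PHY (7.27 to 12.7) and FD_CON (8.40 to 11.9) did. It was noticed among these values, so it was given no test.

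**Figure D2:**
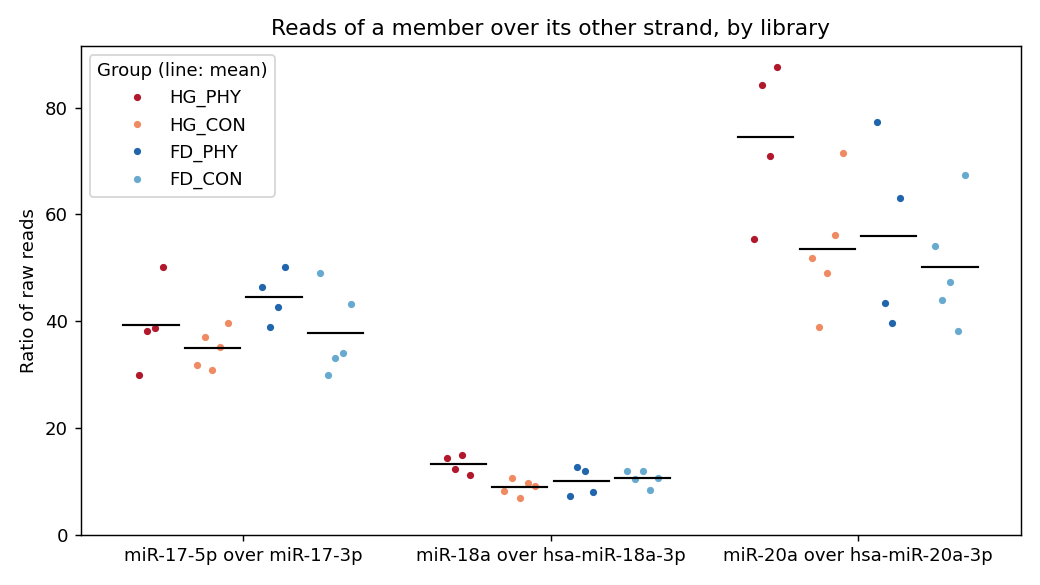
Raw reads of miR-17-5p, miR-18a and miR-20a over those of their opposite strand in each library, on a linear axis from 0, for the 4 groups (points are libraries, lines are means). All ratios lie well above 1, and those of miR-18a, between 6.78 and 14.96, lie below the others.

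The main comparison of the design asks whether the members' levels differed between grain and forage. None of the 9 members passed the test. Over both arms edgeR's quasi-likelihood test called 0 of 9 members at an adjusted p under 0.05, where it called 1 of the 468 miRNAs tested, a background of 0.214%. No member had an unadjusted p under 0.05, against 50 miRNAs (10.7%) in all, and DESeq2 called none of the 6 members for which it gives an adjusted p, against 12 of 151 such miRNAs (7.95%). It gives none for miR-106a, miR-20b and miR-363. The fitted log2 fold changes were above 0 for 3 members and below 0 for 6, with a median of -0.05, beside a median of -0.01 over all 468.

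miR-92a had 18226, 16692, 9384 and 9921 CPM in HG_PHY libraries and 16289, 11543, 9649, 13458 and 8776 CPM in HG_CON libraries. It had 9531, 10231, 11150 and 13568 CPM in FD_PHY libraries and 11553, 11114, 10683, 7928 and 8944 CPM in FD_CON libraries. The HG libraries were the more scattered: 3 of them, replicates 1 and 2 of HG_PHY and replicate 1 of HG_CON, lay above every FD library, and the others lay among them. miR-92a averaged 12660 ± 3617 CPM in HG libraries and 10522 ± 1636 CPM in FD libraries (SD, n = 9 each), a log2 fold change of 0.27 ± 0.14 (SE, edgeR adjusted p = 0.491), and 5 of 9 HG libraries exceeded the FD mean. The interval of 2 SE on either side ran from -0.02 to 0.56. Counting error alone would give a coefficient of variation of 0.300% in HG libraries, so the observed 28.6% is spread between libraries.

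miR-19b had 582, 588, 477 and 520 CPM in HG_PHY libraries and 643, 669, 709, 553 and 588 CPM in HG_CON libraries. It had 678, 716, 603 and 538 CPM in FD_PHY libraries and 659, 865, 596, 599 and 764 CPM in FD_CON libraries. The lowest pair of values was in HG_PHY and the highest pair in FD_CON, but the diets overlapped. miR-19b averaged 592 ± 72.8 CPM in HG libraries and 669 ± 101 CPM in FD libraries, a log2 fold change of -0.18 ± 0.09 (SE, edgeR adjusted p = 0.468), and 7 of 9 HG libraries lay below the FD mean.

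Endothelial, muscle and leukocyte marker sums, whose means were also lower in HG libraries, had positive correlations with miR-19b across libraries. The endothelial list (miR-126-3p and miR-126-5p, both measured) summed to 12550 ± 1548 CPM in HG libraries, between 9452 and 14189 CPM, and to 14321 ± 1026 CPM in FD libraries, between 13013 and 16158 CPM. Across the 18 libraries the log2 levels of miR-19b and of that list had a Pearson r of 0.80 and a Spearman rho of 0.79, and r was 0.67 after group means were removed. With the muscle list the r of miR-19b was 0.67, and with the leukocyte list, which summed to 6526 ± 1224 CPM in HG libraries and 7652 ± 1002 CPM in FD libraries, it was 0.54. After group means were removed, r was 0.51 with the muscle list and 0.32 with the leukocyte list. Without the 2 libraries in which miR-19b lay farthest from its median, r was 0.78 with the endothelial, 0.41 with the muscle and 0.76 with the leukocyte list. With the erythroid list r was 0.13, and 0.57 without those 2 libraries. With the stratified epithelium list it was -0.12, and -0.44 without them. All these points share the libraries and their scaling, and the part of other cell types in the miR-19b values was not tested.

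miR-19a, which has the seed of miR-19b and is listed on chromosome 12 alone, differed less between diets. It ran from 124 to 180 CPM with a median of 150 CPM in HG libraries, and from 125 to 217 CPM with a median of 145 CPM in FD libraries. Its log2 fold change was -0.02 ± 0.12 (SE, edgeR adjusted p = 0.949), and the interval of 2 SE ran from -0.26 to 0.22. miR-19b and miR-19a thus share a seed but had different spreads and, across libraries, an r of 0.49.

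miR-20a was the steadiest member on grain. It had 896, 884, 872 and 852 CPM in HG_PHY libraries and 772, 834, 830, 875 and 896 CPM in HG_CON libraries. It had 825, 879, 741 and 765 CPM in FD_PHY libraries and 767, 835, 879, 736 and 1053 CPM in FD_CON libraries. The coefficient of variation was 4.682% in HG libraries and 12.002% in FD libraries. The means were 857 ± 40.1 CPM in HG libraries and 831 ± 99.8 CPM in FD libraries (SD, n = 9 each), with a log2 fold change of 0.05 ± 0.08 (SE, edgeR adjusted p = 0.865).

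miR-17-5p ran from 666 to 961 CPM with a median of 764 CPM in HG libraries, and from 590 to 1111 CPM with a median of 770 CPM in FD libraries. Its log2 fold change was -0.06 ± 0.11 (SE, edgeR adjusted p = 0.907). miR-106a, its X relative, ran from 16.0 to 34.4 CPM with a median of 27.045 CPM in HG libraries and from 18.3 to 35.3 CPM with a median of 28.2 CPM in FD libraries, with a log2 fold change of -0.06 ± 0.16 (SE, edgeR adjusted p = 0.914). miR-18a ran from 99.0 to 177 CPM with a median of 150 CPM in HG libraries and from 118 to 211 CPM with a median of 140 CPM in FD libraries, with a log2 fold change of -0.05 ± 0.12 (SE, edgeR adjusted p = 0.918). These fold changes, like that of miR-19a, are near 0 and take the other sign without replicate 5 of FD_CON, at 0.015 for miR-17-5p, 0.002 for miR-106a, 0.039 for miR-18a and 0.057 for miR-19a. That library had the highest level within FD_CON for 5 of 9 members.

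The 2 scarcest members were measured with few reads. miR-363 had 30 to 102 reads per library on grain and 38 to 109 on forage, which is 7.13 ± 2.43 CPM in HG libraries and 6.30 ± 2.01 CPM in FD libraries, a log2 fold change of 0.18 ± 0.22 (SE, edgeR adjusted p = 0.823). miR-20b had 5 to 51 reads on grain and 7 to 43 on forage, 1.65 ± 1.03 CPM in HG libraries and 2.30 ± 0.911 CPM in FD libraries. Its log2 fold change was -0.46 ± 0.35 (SE, edgeR adjusted p = 0.626). Counting error alone gives a coefficient of variation near 24.7% for miR-20b in HG libraries, where the observed one was 62.3%, and the interval of 2 SE on its log2 fold change ran from -1.15 to 0.23.

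**Figure D3:**
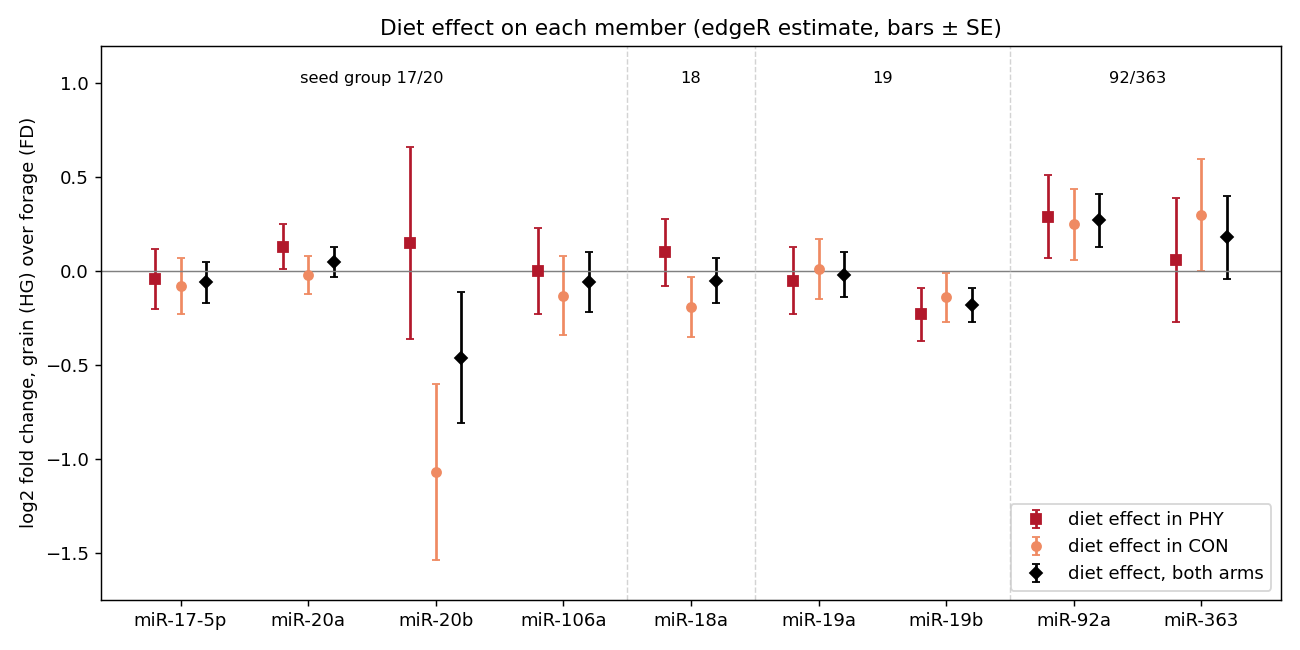
Fitted log2 fold change of each member, HG over FD, from edgeR over both arms and within CON and PHY, with bars of 1 SE. The estimates over both arms lie between -0.46 for miR-20b and 0.27 for miR-92a, and none passed the adjusted threshold.

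Within each arm the picture was much the same. In CON cows edgeR called 0 of 9 members and 0 of 468 miRNAs, a background of 0.0%, with 50 miRNAs (10.7%) at an unadjusted p under 0.05 and none called by DESeq2. miR-20b was the single member among those 50. It had 7, 7, 15, 16 and 8 reads in HG_CON libraries and 43, 27, 26, 7 and 35 reads in FD_CON libraries. All 5 HG_CON libraries lay below the FD_CON mean, but the groups overlapped through a low FD_CON library. Its log2 fold change in CON was -1.07 ± 0.47 (SE, edgeR adjusted p = 0.402).

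In PHY cows edgeR called 0 of 9 members and 0 of 468 miRNAs (0.0%), with 33 miRNAs (7.05%) and no member at an unadjusted p under 0.05 and none called by DESeq2. miR-19b lay below the FD_PHY mean in 4 of 4 HG_PHY libraries, with a log2 fold change of -0.23 ± 0.14 (SE, edgeR adjusted p = 0.815), beside -0.14 ± 0.13 in CON. miR-92a had 0.29 ± 0.22 in PHY and 0.25 ± 0.19 in CON, with edgeR adjusted p-values of 0.847 and 0.783. The difference between the arms' diet effects was tested as an interaction. It was called for 0 of 9 members and 0 of 468 miRNAs by edgeR (0.0%) and for none by DESeq2, and 10 miRNAs (2.14%), no member among them, had an unadjusted p under 0.05. The interaction was 0.04 ± 0.29 for miR-92a and 1.22 ± 0.69 for miR-20b on the log2 scale, and each member's edgeR adjusted p was 0.997.

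The PHY arm was compared with the CON arm on each diet, between different cows. On forage it is not stated whether PHY cows already had the supplement. On grain edgeR called 0 of 9 members and 0 of 468 miRNAs (0.0%), with 32 miRNAs (6.84%) and no member at an unadjusted p under 0.05, while DESeq2 called 2 miRNAs (0.427%), neither of them a member. The fitted log2 fold changes of HG_PHY over HG_CON were above 0 for 7 of 9 members, with a median of 0.18 beside 0.00 over all 468. miR-18a had 158, 155, 149 and 177 CPM in HG_PHY libraries and 150, 105, 99.0, 136 and 151 CPM in HG_CON libraries. All 4 HG_PHY libraries exceeded the HG_CON mean, and 1 of them lay below the highest HG_CON libraries, with a log2 fold change of 0.32 ± 0.17 (SE, edgeR adjusted p = 0.677). miR-19b went the other way, below the HG_CON mean in 4 of 4 HG_PHY libraries, with a log2 fold change of -0.22 ± 0.13 (SE, edgeR adjusted p = 0.677).

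On forage edgeR called 0 of 9 members and 0 of 468 miRNAs (0.0%) for FD_PHY over FD_CON, with 22 miRNAs (4.70%) and no member at an unadjusted p under 0.05, and DESeq2 called 1 miRNA (0.214%) that is no member. miR-363 exceeded the FD_CON mean in 4 of 4 FD_PHY libraries. It had 50, 72, 38 and 109 reads in FD_PHY libraries and 59, 48, 69, 43 and 60 reads in FD_CON libraries, which at the libraries' depths is 7.69 ± 2.01 CPM in FD_PHY (n = 4) and 5.19 ± 1.26 CPM in FD_CON (n = 5). The log2 fold change was 0.57 ± 0.31 (SE, edgeR adjusted p = 0.929).

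Summed by seed, the ranges of every group overlapped between diets. The miR-17 group summed to 1667 ± 125 CPM in HG libraries and 1678 ± 241 CPM in FD libraries (SD, n = 9 each). The miR-19 group summed to 746 ± 82.9 CPM in HG libraries and 824 ± 119 CPM in FD libraries. The miR-92a group, which is nearly all miR-92a, took 82.4% ± 3.97 of the members' reads in HG libraries and 79.6% ± 3.77 in FD libraries, and the miR-19 group took 5.11% ± 1.18 in HG libraries and 6.34% ± 1.18 in FD libraries. These sums got no test, because the members were chosen as a list.

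A ratio of 2 members within a library does not depend on scaling, so the most abundant member of each seed group was set against the others, which gives 6 ratios. None passed an adjusted p under 0.05 over those 6. miR-92a over miR-19b had a median of 19.7, between 13.6 and 31.3, in HG libraries and a median of 14.3, between 11.7 and 25.2, in FD libraries. The mean log2 ratio was 0.40 higher in HG libraries (two-sided exact permutation test, p = 0.041, adjusted p = 0.123), and 7 of 9 HG libraries lay above the FD mean. miR-20a over miR-19b had a median of 1.53, between 1.17 and 1.83, in HG libraries and a median of 1.23, between 0.965 and 1.48, in FD libraries. The mean log2 ratio was 0.22 higher in HG libraries (two-sided exact permutation test, p = 0.0335, adjusted p = 0.123), and 6 of 9 HG libraries lay above every FD library. Replicate 3 of HG_CON had the lowest of the HG ratios in both cases, and without it both had an adjusted p of 0.0486 by the same exact permutation test, with differences of 0.48 and 0.26. Leaving out the lowest HG value raises the difference by construction. Of 22 alternative settings for each ratio, 21 left the outcome unchanged, and the highest adjusted p was 0.495 (exact permutation test, CON alone).

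The other 4 ratios differed less. The difference in mean log2 ratio was 0.29 for miR-92a over miR-18a, 0.18 for miR-92a over miR-20a, 0.12 for miR-18a over miR-19b and 0.10 for miR-20a over miR-18a, with exact permutation adjusted p-values from 0.333 to 0.5. The ratios with miR-19b below the line are given by arm. In PHY, miR-92a over miR-19b was 31.3, 28.4, 19.7 and 19.1 in HG_PHY libraries and 14.1, 14.3, 18.5 and 25.2 in FD_PHY libraries, which overlap, with a difference in mean log2 ratio of 0.46 (exact permutation adjusted p = 0.229), beside 0.36 in CON (exact permutation adjusted p = 0.495). miR-20a over miR-19b was, in PHY, 1.54, 1.504, 1.83 and 1.64 in HG_PHY libraries and 1.22, 1.23, 1.23 and 1.42 in FD_PHY libraries. miR-18a over miR-19b was 0.271, 0.263, 0.313 and 0.341 in HG_PHY libraries and 0.232, 0.234, 0.241 and 0.238 in FD_PHY libraries.

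HG_PHY and FD_PHY did not overlap for miR-20a over miR-19b or for miR-18a over miR-19b. Each gave the smallest p that an exact two-sided permutation test of 4 against 4 libraries allows, 0.0286, with an adjusted p of 0.0857. In CON the mean log2 ratio differed by 0.12 for miR-20a over miR-19b (exact permutation adjusted p = 0.495). For miR-18a over miR-19b the CON difference was -0.05 (exact permutation adjusted p = 0.897), the opposite sign to PHY. Whether the arms differ in these ratios was not tested.

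**Figure D4:**
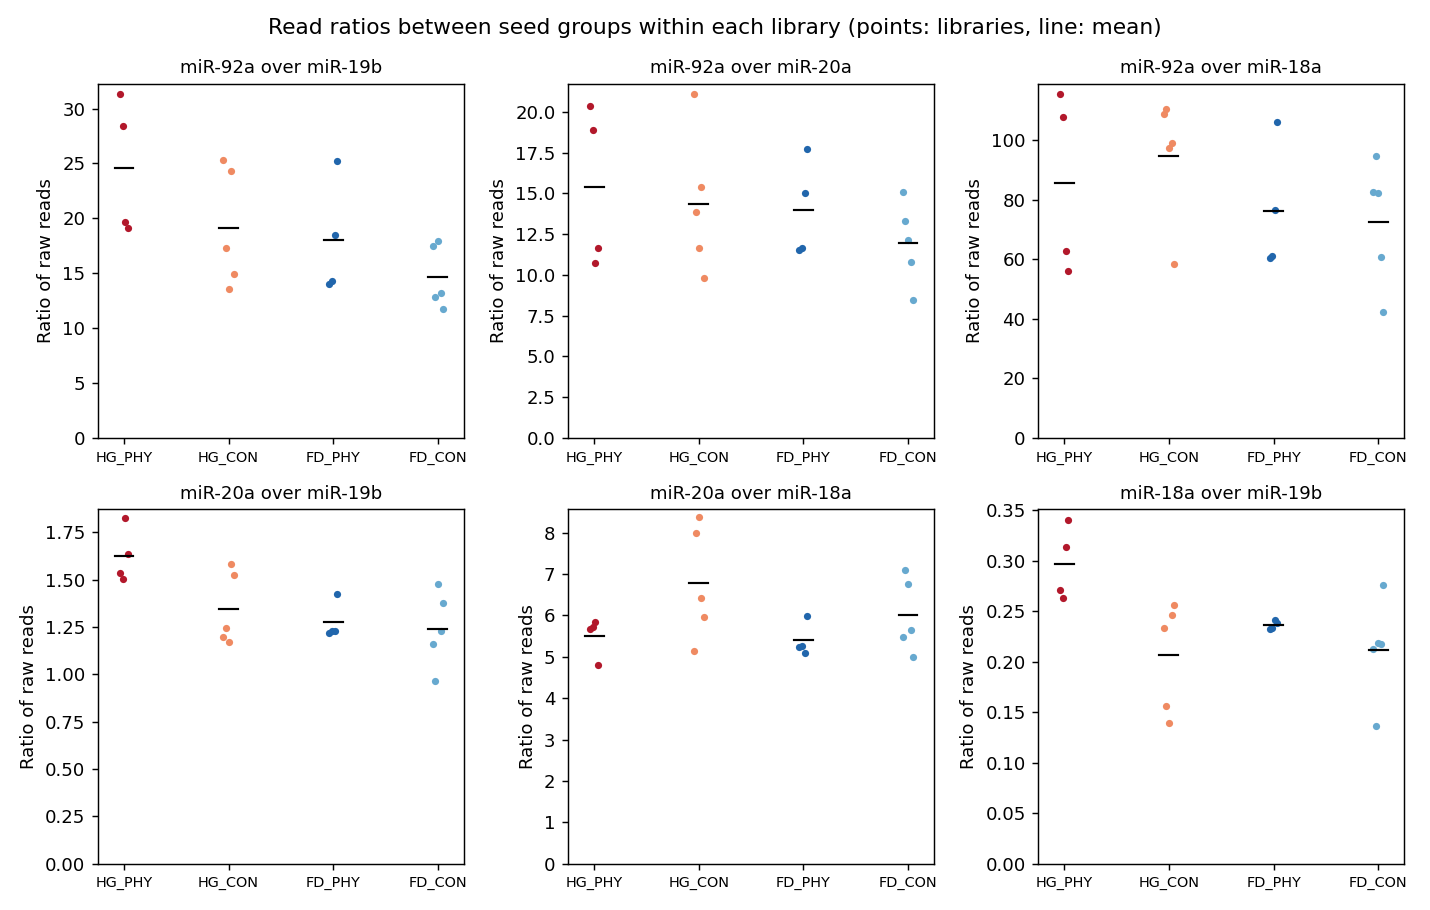
Raw-read ratios between the most abundant members of the seed groups within each library, for HG_PHY, HG_CON, FD_PHY and FD_CON (points are libraries, lines are means, linear axes from 0). The 4 HG_PHY libraries, at 1.504 to 1.83, lie above the 4 FD_PHY libraries, at 1.22 to 1.42, for miR-20a over miR-19b, while HG_CON and FD_CON overlap.

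The 4 members listed on chromosome 12 alone, miR-17-5p, miR-18a, miR-19a and miR-20a, all had a positive correlation with one another across libraries. miR-92a and miR-19b, which have a gene in both clusters, were less like them, apart from miR-19a with miR-19b. As a description over the 18 libraries, which share their scaling, log2 levels of miR-17-5p and miR-18a had a Pearson r of 0.82, and 0.84 once group means were removed. The other 5 pairs of these 4 members had an r of 0.49 to 0.56. Without the 2 libraries in which the first-named member lay farthest from its median, several of these fell. They then ran from 0.13 for miR-20a with miR-19a to 0.57 for miR-18a with miR-19a, beside 0.74 for miR-17-5p with miR-18a. miR-17-5p and miR-106a had 0.83, but most reads of miR-106a fit several names or loci. Whether reads shared between the 2 raised this r was not tested. miR-17-5p had an r of -0.10 with miR-19b and of -0.23 with miR-92a, miR-20a had 0.15 and -0.07, and miR-18a had -0.13 and -0.02. miR-19a, which has the seed of miR-19b, had 0.49 with it and 0.19 with miR-92a. The median r of miR-17-5p with the 261 other miRNAs of at least 10 CPM was -0.09, with quartiles of -0.33 and 0.22. miR-92a had no r above 0.19 with any of the other 8 members.

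**Figure D5:**
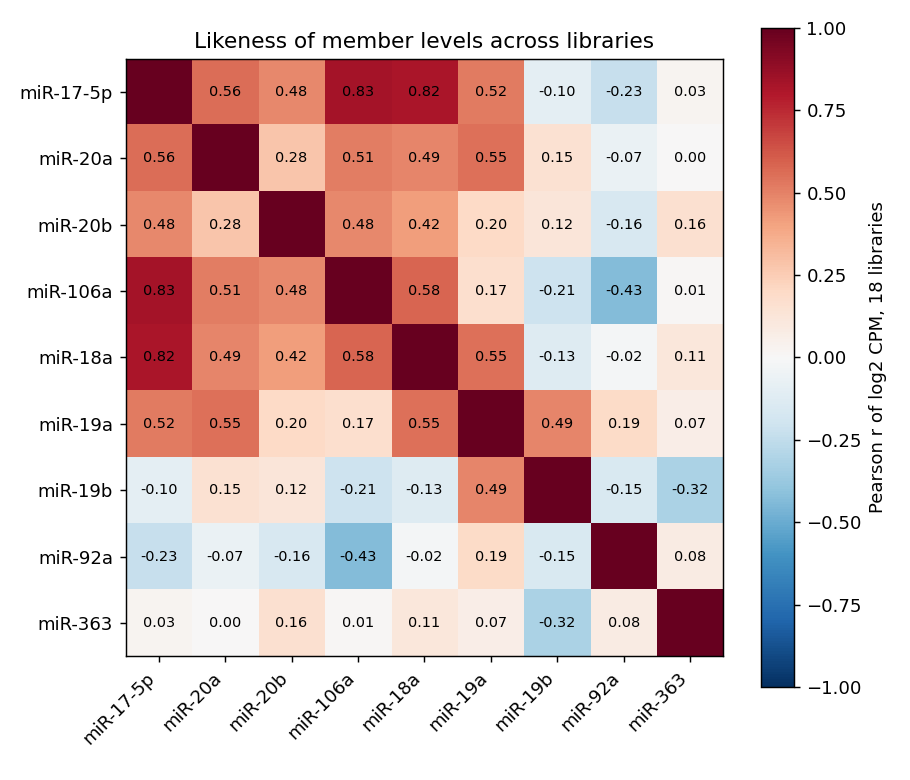
Pearson r between the log2 CPM of each pair of members over the 18 libraries, coloured from blue (-1) to red (1). miR-17-5p, miR-18a and miR-106a are alike (0.58 to 0.83), whereas miR-92a and miR-19b have values near or below 0 with most others. Most reads of miR-106a fit several names or loci, and the part of shared reads in its values was not tested.

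Outside the clusters, the miRNAs most like each representative were compared, and miR-221 was among them for both miR-18a and miR-20a. For miR-18a these were miR-221 (r = 0.88), miR-211 (0.78) and miR-21-5p (0.78). For miR-20a they were miR-27a-3p (0.63), miR-450a (0.60) and miR-221 (0.56). For miR-19b they were miR-326 (0.79), miR-126-3p (0.76) and miR-126-5p (0.72), the last pair being the endothelial miRNAs described above. For miR-92a they were miR-2284x (0.73), miR-331-5p (0.73) and miR-296-3p (0.68), each over 18 libraries and chosen as the highest of 261. miR-92a had an r of 0.40 and a Spearman rho of 0.29 with the erythroid list (miR-451, miR-144 and miR-486, all measured). That r was 0.42 after group means were removed and 0.27 without the 2 libraries in which miR-92a lay farthest from its median. The upper quartile of its r with the 261 other miRNAs was 0.23. The erythroid list summed to 11549 ± 4781 CPM in HG libraries and 9756 ± 2763 CPM in FD libraries. The part of red cells in the miR-92a values was not tested.

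The third copy of this family, the miR-106b-25 cluster on chromosome 25, carries miR-106b and miR-93 with the seed of miR-17-5p and miR-25 with that of miR-92a. Its 3 members had diet log2 fold changes above 0 over both arms, and edgeR called 0 of them. miR-93-5p, counted under its human name, had 0.28 ± 0.08 and miR-25 had 0.30 ± 0.09 (SE), each with an edgeR adjusted p of 0.165 and with 8 of 9 HG libraries above the FD mean. DESeq2 called both, with adjusted p-values of 0.0162 and 0.0339. miR-106b had 0.11 ± 0.08 (SE, edgeR adjusted p = 0.596). In comparison, the members of the miR-17 group had -0.06 for miR-17-5p, 0.05 for miR-20a, -0.06 for miR-106a and -0.46 for miR-20b. Those of the miR-92a group had 0.27 for miR-92a and 0.18 for miR-363, and miR-92a and miR-25 had an r of 0.66 across libraries. The seed relatives outside the clusters' 9 members, miR-18b and miR-92b, each had 0.05 and were not called, nor were any of the 3 opposite strands with enough reads to test (miR-17-3p, miR-18a-3p and miR-20a-3p, 0.09, -0.13 and -0.22).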

How the data were processed

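The 18 deposited library files give, per the file headers, raw read counts, adjusted counts (expected counts in which the authors divided a read over the names and loci it fits) and RPM per miRNA name. RPM was used only to recover total reads, and a series table of normalized values was not used. Tools listed in the submitters' processing notes are bcl2fastq 2.20 and DESeq2, the second with no role, and the aligner and counter are not stated. Per the labels' protocols, the extraction kit was NucleoSpin miRNA and the library kit NETflex Small RNA-Seq.

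The files list 966 names. Names were merged where positions overlapped by 15 nt or more, or where bovine and human names of a miRNA had totals within 5% of each other. This left 824 miRNAs, each represented by the name with most reads, members by their own. Raw counts were tested with edgeR 4.0.16 in R 4.3.3 (TMM, filterByExpr, quasi-likelihood test over the 4 groups, Benjamini-Hochberg over 468 miRNAs, threshold 0.05). DESeq2 1.42.0 was run as an alternative. In simulated counts for the diet comparison on 468 miRNAs, edgeR called 81.2% of 96 changes of 1 on the log2 scale and 99% of 97 changes of 2. It also called 2.28% of 263 unchanged miRNAs. Far more miRNAs were changed there than edgeR called in the real data, which eases the adjusted threshold. Changes below 1 were not simulated, and all members' fitted diet changes over both arms were below 1 in size. The power for changes of that size was therefore not tested.

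The text names all 9 members, the measured miRNAs of the paralogous cluster, seed relatives and opposite strands, and the 3 miRNAs most like each seed group's most abundant member. Members, lists and ratios were chosen with earlier results of these data known. The stratified epithelium list had 6 of 7 and every other marker list all of its miRNAs measured. Nothing says that a replicate number is a cow: the tests treat 18 libraries from 9 cows as independent, and the p-values measure the spread between libraries. No 2 replicates of a group were alike within sampling noise. The RefSeq gene table (ARS-UCD2.0) served for gene order.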

Additional observations from a re-analysis of the deposited data

Results flagged for a closer look

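In 5 of 60 groups of 4 or 5 libraries a single library lay far from the rest of its group, and chance alone flags about 1 in 20 groups. Replicate 5 of FD_CON had 211 CPM of miR-18a, where the other FD_CON libraries had 118 to 140 CPM, and 217 CPM of miR-19a, where the others had 125 to 145 CPM. The ratio of miR-92a to miR-18a was 58.3 in replicate 5 of HG_CON, against 97.5 to 110 in the others. The ratio of miR-20a to miR-19b was 1.42 in replicate 4 of FD_PHY, against 1.22 to 1.23 in the others. The ratio of miR-20a to miR-18a was 4.81 in replicate 4 of HG_PHY, against 5.67 to 5.84 in the others.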

How the results depend on the processing

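No member was called in any of the 1275 refits of the 54 member results that gave an adjusted p, where the lowest adjusted p was 0.219 (edgeR or DESeq2). DESeq2 gave none for diet over both arms in 3 cases, miR-106a, miR-20b and miR-363. The number of miRNAs called for diet over both arms, 1, became 3 with no filter on low counts, 12 with DESeq2, 0 with adjusted counts, 2 with every name as a feature and 4 with the replicate block, and ran from 0 to 3 when a library was left out, with 0 in 14 of 18 cases. For PHY against CON on grain it became 2 with DESeq2 and ran from 0 to 2 when a library was left out. On forage it became 1 with no filter and 1 with DESeq2, and ran from 0 to 1. Replicate numbers were not taken as pairs, since 3 of 9 pairs, not all, deviated together with a correlation over 0.1 (median 0.073, highest 0.393). That 4 of 9 were closest to their own number is a hint from the data, not the design, so a pairing by cow was neither shown nor excluded. With the block the adjusted p of miR-92a over miR-19b was 0.188.

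In 21 member results, each of a size of at most 0.15 on the log2 scale, some setting turned the sign. With adjusted counts miR-19a in CON became -0.002 and miR-106a in PHY 0.003, and with every name as a feature miR-19a for PHY against CON on grain became 0.014. In CON alone miR-18a over miR-19b became -0.047. Leaving out a library gave these ranges. For diet over both arms they were -0.124 to 0.015 for miR-17-5p, -0.137 to 0.002 for miR-106a, -0.096 to 0.039 for miR-18a and -0.073 to 0.057 for miR-19a. For diet in CON they were -0.206 to 0.075 for miR-17-5p, -0.072 to 0.065 for miR-20a, -0.272 to 0.006 for miR-106a and -0.060 to 0.166 for miR-19a. For diet in PHY they were -0.121 to 0.025 for miR-17-5p, -0.285 to 0.413 for miR-20b, -0.118 to 0.113 for miR-106a, -0.149 to 0.063 for miR-19a and -0.088 to 0.239 for miR-363. For PHY against CON they were -0.083 to 0.115 for miR-19a on grain, and on forage -0.001 to 0.250 for miR-17-5p, -0.036 to 0.211 for miR-18a and -0.011 to 0.216 for miR-19a. For the interaction they were -0.119 to 0.164 for miR-17-5p, -0.027 to 0.270 for miR-106a, -0.219 to 0.050 for miR-19a and -0.136 to 0.206 for miR-92a. The difference in log2 ratio ran from 0.329 to 0.488 for miR-92a over miR-19b and from 0.175 to 0.261 for miR-20a over miR-19b, and the cause of these shifts was not tested. With RLE scaling 1 miRNA was called for diet. The alternatives for the seed group totals were chosen after seeing the data, and moved them by less than the spread between libraries. Depth limits miR-20b and miR-363 most.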
